A study of Drosophila melanogaster with 41 samples.

Results

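The comparison described here is between Δelav,fnenFNE embryos and their fnenFNE controls at the age when the first neurons differentiate. Its members were the 8 mRNA-seq libraries that the labels give to these genotypes, 4 of each, of the 41 libraries in the series. All were male Drosophila melanogaster embryos collected 7 to 8 h after egg laying. Both genotypes carried fnenFNE, an allele of fne whose flanking introns were removed so that a small exon encoding a nuclear localization region is always spliced in. The Δelav,fnenFNE embryos also lacked the elav coding sequence, through a deletion on the X chromosome. Values from further groups are given beside them: 4 libraries each of elavmin,fnenFNE and elavnFNE male embryos of the same age, of wild-type and Δelav,fnenFNE male embryos at 14 to 16 h, and 3 libraries each of wild-type and Δelav,fnenFNE adult male heads labelled 72 h AH. The elavmin allele carries a frameshift in elav and is described by the study as hypomorphic. In elavnFNE the coding sequence of nuclear FNE replaces that of elav, and the study describes these flies as carrying at fne not fnenFNE but fnen, whose protein cannot enter the nucleus, so that any comparison with elavnFNE also differs at fne. Reads had been counted on exon bins, the non-overlapping pieces of each gene's annotated exons, and the bin counts were summed for each gene. The comparison asks what differs in total mRNA when ELAV is missing at the onset of neuronal differentiation. Mutant and control lines were separate strains, so that the elav deletion and every other sequence difference between the lines cannot be told apart in this comparison.

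ELAV is an RNA-binding protein found in the nuclei of post-mitotic neurons. It promotes the inclusion of neuronal exons and the use of distal polyadenylation sites, which gives neurons long 3′ untranslated regions. Its paralogs are FNE and RBP9. FNE is mostly cytoplasmic and can enter the nucleus when its small exon is included. At this stage neuroblasts, the neural stem cells, delaminate from the neurectoderm and divide to give ganglion mother cells, whose daughters become neurons and glia.

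The study's oligonucleotides for elav and for the small fne exon place both alleles on the X chromosome, and are shown because they mark what the bins can and cannot report. Both elav oligonucleotides lie in 1 bin, and the genome used for the match is Release 6 (dm6).
elav CDS fwd: catgcacacgccagttaacaa
elav CDS rev: gtcgcccgccattggt
n-fne exon fwd: gaaagagtcccatgttagcga
n-fne exon rev: ctttgtaggcccttgttaatcg
The elav pair matched X:518122-518137 on the plus strand and X:518156-518176 on the minus strand, inside the coding bin of elav at X:517236-519242. This bin is 2007 nt long and holds 1451 coding bases followed by 556 bases after the stop codon. The n-fne pair matched X:12944298-12944337, between the fne bin that ends at 12943756 and the next one, which starts at 12945166. No counted bin covers the small exon, so its inclusion was not analysed here.

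The elav coding bin separated the genotypes and checked the labels. Its share of all elav counts was 45.2%, 42.9%, 41.1% and 42.3% in the control libraries a to d. In the Δelav,fnenFNE libraries a to d it was 20.2%, 21.3%, 19.1% and 19.7%. The groups did not overlap, and the fitted change in usage of this bin was −1.10 (log2 scale, SE 0.11, adjusted p = 2.96e-09). Counts that remained in the mutant cannot be placed within the bin, which holds bases after the stop codon as well. The coding bin took 42.9% ± 1.73 (SD, n = 4) of elav counts in elavmin,fnenFNE embryos of the same age and 12.3% ± 0.544 (SD, n = 4) in elavnFNE embryos.

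Summed over all bins, elav, fne and Rbp9 did not pass the gene-level test. Values are in CPM, counts scaled to a common library total with TMM factors. A gene was called at an adjusted p under 0.05 in edgeR's quasi-likelihood test across all genes. elav stood at 635, 692, 749 and 598 CPM in controls and at 721, 722, 913 and 910 CPM in Δelav,fnenFNE embryos, with overlapping groups (log2 fold change 0.29, SE 0.10, adjusted p = 0.173). fne stood at 110, 120, 139 and 94.9 CPM against 101, 99.0, 76.9 and 126 CPM (−0.21, SE 0.16, adjusted p = 0.536). Rbp9 was low in both groups, at 4.02 ± 0.467 against 4.88 ± 1.81 CPM (SD, n = 4). The total of elav sums a coding bin at a lower share and a last bin, at the 3′ end, at a higher one. The share of this last bin rose from 39.3% ± 2.19 to 54.9% ± 1.92 (SD, n = 4). A lower share of the coding bin raises those of the others. The usage call of the last bin (adjusted p = 0.00947) was lost when any library but control d was left out. With the bins called for usage left out of the sum, elav passed, at 0.72 (adjusted p = 0.00863). Those bins were called in these same libraries. The bins that remained took 5.96%, 0.321% and 3.49% of elav counts in controls. In direct tests the total of elav over all bins was above that of elavmin,fnenFNE by 0.62 (adjusted p = 0.00433). It was above that of elavnFNE by 0.47 (adjusted p = 0.0183). Of the 15 neuronal RNA-binding protein genes tested, 1 was called higher and 0 lower, against 1.29% and 1.67% of all genes. This was Srrm234, which encodes the splicing factor of neuronal microexons. It rose from 403 to 470 CPM (log2 fold change 0.22, SE 0.04, adjusted p = 0.0127), and the groups did not overlap. Directly tested, it did not differ from elavmin,fnenFNE (0.14, adjusted p = 0.113) or elavnFNE (0.12, adjusted p = 0.204).

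The depth was 19979088 to 25810527 counts in 7 libraries and 51377771 counts in control a. Along the first principal component of log2 expression, which held 37.0% of the variance, controls lay between −16.9 and −8.92 and Δelav,fnenFNE libraries at 13.2, 12.8, 25.5 and 2.81. Libraries c and d of the mutant thus stood apart from a and b, on opposite sides. A developmental age index, the log2 ratio of the summed level of 1315 genes higher in 14 to 16 h wild-type embryos to that of 334 genes higher at 7 to 8 h, ran from −3.31 to −2.99 in controls and from −3.54 to −3.02 in mutants. The difference of −0.11 was within this spread (2-sided exact permutation test, n = 4 and 4, p = 0.371; the smallest p this design can give is 0.0286). A coverage index, the median log2 ratio of counts in the part nearer the 3′ end and the part nearer the 5′ end of 4257 genes, differed by 0.00818 (2-sided exact permutation test, p = 0.771). The labelled tissue is whole embryos, and summed markers of neurons, neuroblasts, glia, midline, muscle, trachea and gut were present in every library.

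Across the transcriptome, 291 of 9828 genes tested were called, which is 2.96% of them. Of these, 127 were higher (1.29%) and 164 were lower (1.67%) in Δelav,fnenFNE embryos. The lower genes were changed more, with a median log2 fold change of −0.98 against 0.36 for the higher genes. They also came from lower levels, with a median control value of 12.3 CPM against 56.5 CPM. A log2 change of at least 1 was reached by 82 of the lower genes and 15 of the higher genes. The libraries of the 2 groups did not overlap for 290 of the called genes, and for 12.1% of all genes tested. In all 8 fits that leave out 1 library, 119 of the 291 genes passed.

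**Figure D1:**
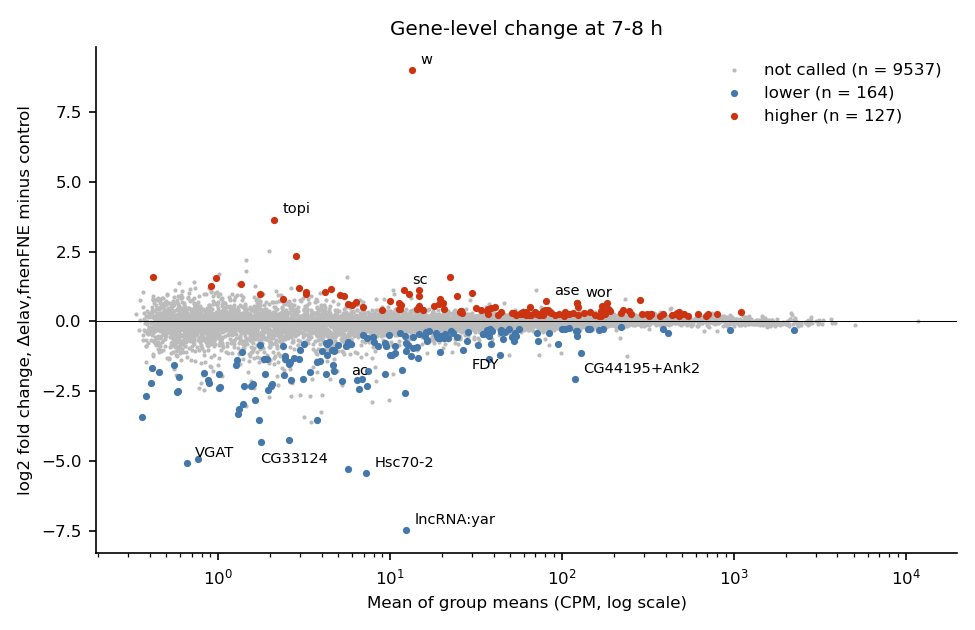
Log2 fold change of Δelav,fnenFNE against control at 7 to 8 h (vertical axis) by mean level in CPM (horizontal axis, log scale), with 1 point for each of the 9828 genes tested. Red points mark the 127 genes called higher and blue points the 164 called lower, and w and lncRNA:yar lie at the 2 ends of the fold change axis.

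Genes of neuroblasts and proneural fields held several of the calls. Of the 31 tested, 7 were higher and 1 was lower, against 1.29% and 1.67% of all genes, and the median log2 fold change was 0.16 against −0.02 for all genes. Other groups had medians as high, with 0.17 for midline genes, of which 0 were called, 0.16 for Hox genes and 0.12 for gut genes, and 24 of 26 muscle genes and 19 of 20 tracheal and epidermal genes had positive values. With 1 library left out at a time, 5 to 7 were higher and 1 or 2 were lower. The 7 were sc, ase, wor, svp, pros, grh and klu. asense, a bHLH factor found in all type I neuroblasts, stood at 56.6, 62.9, 58.9 and 63.5 CPM in controls and at 95.0, 92.2, 113 and 102 CPM in Δelav,fnenFNE embryos (log2 fold change 0.73, SE 0.07, adjusted p = 0.000173). worniu, a Snail-family zinc finger factor that keeps neuroblasts dividing, stood at 92.5, 94.1, 95.4 and 96.6 CPM against 151, 157, 152 and 141 CPM (0.67, SE 0.05, adjusted p = 2.1e-05). Every mutant library lay above every control library for both genes. They lie on different chromosomes, ase on X within 250 kb of elav and wor on 2L. Summed markers of other cell types moved with them in part: hemocyte markers stood at 351 to 387 CPM in controls and 426 to 436 CPM in mutants, with 1 of 4 markers at 0 in all libraries, midline markers at 1131 to 1317 against 1327 to 1478 CPM, and gut markers at 481 to 517 against 518 to 623 CPM. Sensory organ markers stood at 75.0 to 81.6 CPM in controls and 89.1 to 101 CPM in mutants, and germ cell markers at 28.4 to 46.9 against 25.3 to 29.7 CPM. Glial markers stood at 365 to 390 against 384 to 387 CPM and muscle markers at 665 to 738 against 709 to 785 CPM. Their part in these calls was not tested.

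Among the other 5, scute, a proneural bHLH factor of the achaete-scute complex, rose from 7.53 ± 0.337 to 16.4 ± 2.23 CPM (SD, n = 4; log2 fold change 1.12, adjusted p = 0.000167). The gene counted together as CG44037+svp, which holds seven-up, a factor that ends an early step of the neuroblast temporal series, rose from 71.1 ± 1.88 to 95.4 ± 3.14 CPM. prospero, which is handed to ganglion mother cells and stops self-renewal, rose from 412 ± 13.4 to 514 ± 24.0 CPM. grainy head, the last factor of the temporal series, rose from 422 to 503 CPM, and klumpfuss, a self-renewal factor, from 95.4 to 110 CPM. The call of klu was lost when any 1 of the 8 libraries was left out, and that of grh without mutant a. Achaete moved the other way from scute, its neighbour in the same complex. It stood at 8.36, 8.44, 8.19 and 9.49 CPM in controls and at 1.92, 2.27, 1.94 and 1.62 CPM in mutants (log2 fold change −2.15, SE 0.15, adjusted p = 1.4e-05). The pan-neuroblast genes deadpan (0.05, adjusted p = 0.691) and miranda (0.06, adjusted p = 0.496) did not pass.

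**Figure D2:**
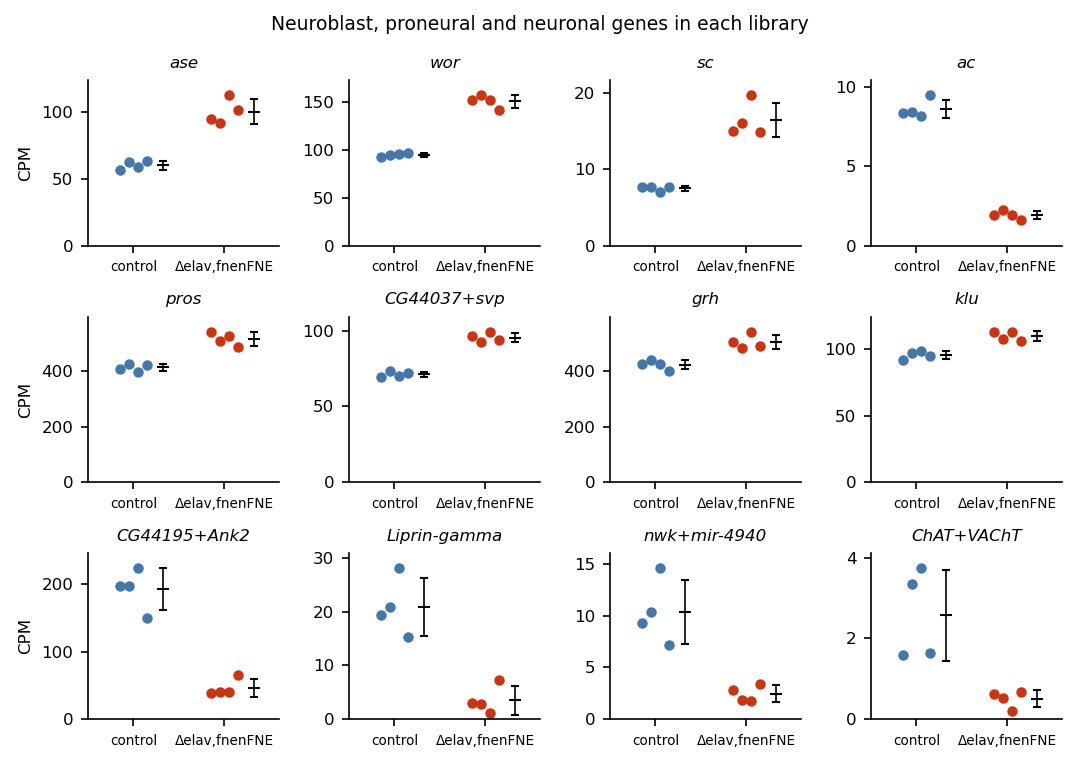
CPM (vertical axes, each from 0) of 12 genes in the 4 control libraries (blue) and the 4 Δelav,fnenFNE libraries (red), with the mean and SD as black bars. The groups are separate in each panel, and ac and the 4 neuronal genes of the bottom row are the ones lower in the mutant.

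Of the 7 higher genes, ase, wor and pros also differed from both other genotypes of this age. Mean levels of ase were 81.5 CPM in elavmin,fnenFNE and 74.2 CPM in elavnFNE embryos, below the mutant and above the control. Those of wor, at 120 and 124 CPM, also lay between. Against the control, ase was higher by 0.43 in elavmin,fnenFNE (adjusted p = 0.00164) and by 0.29 in elavnFNE (adjusted p = 0.0153). The wor values were 0.34 (adjusted p = 0.00491) and 0.38 (adjusted p = 0.000852). pros did not pass there, at 0.04 and 0.11 (adjusted p = 0.637 and 0.194). In these tests svp and grh passed in elavnFNE alone, and sc in elavmin,fnenFNE alone. Directly tested for ase, Δelav,fnenFNE was higher than elavmin,fnenFNE by 0.31 (log2 scale, adjusted p = 0.0325) and than elavnFNE by 0.45 (adjusted p = 0.0016). For wor the same differences were 0.33 (adjusted p = 0.012) and 0.29 (adjusted p = 0.00715), and for pros 0.28 (adjusted p = 0.0124) and 0.21 (adjusted p = 0.0374). The other 4 did not pass both tests. sc differed from elavmin,fnenFNE by 0.08 (adjusted p = 0.771) and from elavnFNE by 0.82 (adjusted p = 0.000233), and svp by 0.28 (adjusted p = 0.0462) and 0.11 (adjusted p = 0.214). For grh (adjusted p = 0.295 and 0.649) and klu (adjusted p = 0.0678 and 0.734) neither test passed. Calls in these 2 direct comparisons made up 2.52% and 7.15% of the genes tested. They reuse the mutant libraries by which the genes were called, so that passing them is not independent of the first call. Among the genes called against the control, 43 of 273 (15.8%) and 101 of 279 (36.2%) passed in the same direction. Both tests were passed in the direction of the first call by 20 of the 291 called genes, 8 higher and 12 lower. The share of all genes that pass both was not determined, so nothing is read from this count. In separate libraries of 14 to 16 h embryos, Δelav,fnenFNE was above the wild type by 0.76 for ase (adjusted p = 0.000785) and by 0.80 for wor (adjusted p = 0.000275), whereas pros differed by −0.10 (adjusted p = 0.495). At that age 25.6% of all genes tested were called.

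Genes of post-mitotic neurons lay on both sides of 0. Of 24 tested, 12 had positive and 12 negative fold changes, with a median of −0.01 on the log2 scale. Among them 1 was called higher and 1 lower, against 1.29% and 1.67% of all genes. scratch (scrt), a pan-neuronal zinc finger factor, was higher, at 263 ± 17.6 against 319 ± 25.4 CPM (SD, n = 4; 0.28, adjusted p = 0.0475), a call lost with 6 of the single libraries left out. ChAT and VAChT, which make and load acetylcholine and are nested in 1 locus, were counted together, and their summed bins were lower. They stood at 1.59, 3.35, 3.75 and 1.63 CPM in controls and at 0.610, 0.519, 0.205 and 0.677 CPM in mutants (−2.32, SE 0.40, adjusted p = 0.0098). The other 22 did not pass, with values from −1.06 for cpx (adjusted p = 0.0558) to 0.34 for futsch, counted with Gr2a (adjusted p = 0.175). The summed level of 8 neuron markers was 608 to 736 CPM in controls and 672 to 812 CPM in mutants. That of 4 neuroblast markers was 908 to 940 against 1000 to 1078 CPM. In whole embryos, more or fewer cells of a type and more or less RNA per cell cannot be told apart.

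Other genes with neuronal roles stood among those called lower. Ank2, VGAT, nwk, Aplip1, Cdk5alpha and nAChRbeta1 were chosen after their values were seen, so that nothing is read from their common direction. Ankyrin 2, which anchors membrane proteins to the neuronal cytoskeleton and is counted with CG44195, was the most abundant. It stood at 198, 198, 224 and 149 CPM in controls and at 39.2, 39.7, 39.5 and 65.8 CPM in mutants (log2 fold change −2.06, SE 0.21, adjusted p = 0.00254). Ank2 and nwk are among the genes the study lists as ELAV targets, and the value of Ank2 was −1.96 (adjusted p = 0.0035) once bins called for usage were left out of the sum. Direct tests placed it below elavmin,fnenFNE (−1.41, adjusted p = 0.0262) and below elavnFNE (−1.68, adjusted p = 0.00446). VGAT, the vesicular transporter of GABA, had 56, 29, 54 and 18 counts in controls and 0, 0, 1 and 2 counts in mutants. nervous wreck (nwk), a synaptic endocytosis adaptor, fell from 10.4 ± 3.12 to 2.42 ± 0.821 CPM. Aplip1, a kinesin adaptor of axonal transport, fell from 3.82 ± 1.02 to 1.0 ± 0.309 CPM, and Cdk5alpha, the activator of the neuronal kinase Cdk5, from 11.6 ± 2.45 to 3.37 ± 1.03 CPM. nAChRbeta1, a nicotinic receptor subunit, fell from 2.64 to 0.550 CPM (−2.25, adjusted p = 0.0406), a call lost when any library but mutant d was left out. For VGAT, nwk, Aplip1 and nAChRbeta1 the control mean lay above the means of both other genotypes of this age.

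AstA-R1 and Liprin-gamma were among the 12 genes with the largest decreases. AstA-R1, a receptor of the neuropeptide allatostatin A, stood at 1.49, 2.98, 2.43 and 2.63 CPM in controls against 0.261, 0.20, 0.307 and 0.316 CPM in mutants (−3.12, adjusted p = 0.000221). It was at 4.01 CPM in elavnFNE and at 0.191 CPM in elavmin,fnenFNE embryos. Liprin-gamma, a scaffold protein of the presynaptic active zone, stood at 19.4, 20.9, 28.2 and 15.3 CPM against 2.92, 2.71, 1.02 and 7.31 CPM. Its adjusted p of 0.0499 (−2.58, SE 0.51) was lost with any library but mutant d left out. For Liprin-gamma and Ank2 the mutant library nearest to the controls was d, the one also nearest along the first principal component. On the developmental age index mutant d was the highest mutant, at −3.02, and mutant c the lowest, at −3.54. Control c was the highest control on that index, at −2.99, and control d the lowest, at −3.31. Among controls, both genes were likewise highest in c and lowest in d. Among mutants, Liprin-gamma but not Ank2 was lowest in c. Of other genes called lower, klg, Drl-2 and CG6184 had the full order, highest in control c and mutant d and lowest in control d and mutant c. ChAT and VAChT had it but for the lowest control, which was a. Hsc70-2 and CG33124 did not have it. The part of library age in these calls was not tested.

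The direction of calls among axon guidance and cell adhesion genes depended on the fit. Of 44 tested, 0 were higher and 3 were lower, against 1.29% and 1.67% of all genes, with a median log2 fold change of 0.03. Values were positive for 25 and negative for 19. The fit over all 16 libraries of this age called 2 higher and 2 lower. DESeq2's Wald test called 4 higher and 5 lower of 45, and the fit with replicate letters as a block called 0. klingon (klg), an immunoglobulin-domain adhesion protein, fell from 65.1 ± 9.72 to 39.8 ± 4.0 CPM (SD, n = 4; −0.71, adjusted p = 0.00557). Its level was 40.4 CPM in elavmin,fnenFNE embryos, and the direct difference from them was −0.01 (adjusted p = 0.987). Drl-2, a Wnt receptor of the Ryk family, fell from 5.29 to 1.51 CPM, and dock, an adaptor downstream of axonal receptors, from 189 to 156 CPM. Both calls were lost with 5 of the 8 single libraries left out. robo1, sli, fra, comm and Dscam1 had values between 0.03 and 0.19 and did not pass. Outside the list, Dscam4 rose from 19.6 ± 3.94 to 40.0 ± 6.32 CPM (1.03, adjusted p = 0.0069) and was at 46.9 CPM in elavmin,fnenFNE embryos.

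Genes of other tissues and processes gave 0 to 2 calls a group, against 2.96% of all genes. None of 13 glial, 13 midline, 14 yolk, amnioserosa and germ cell, 10 cuticle, 16 heat shock, 14 detoxification and 2 antimicrobial peptide genes tested was called. Muscle and mesoderm genes gave 1 call of 26, kirre, a myoblast fusion receptor, which rose from 33.4 ± 2.54 to 48.3 ± 2.49 CPM (0.54, adjusted p = 0.0017). Tracheal and epidermal genes gave 2 of 20, knrl and vvl, and gut genes gave bowl, 1 of 13. The gene abd-A was the 1 of 8 Hox genes to pass, at 284 ± 13.1 against 343 ± 21.4 CPM, and all 8 had positive values with a median of 0.16. Eip75B of 15 ecdysone genes and egr of 12 cell death genes were higher by 0.27 and 0.30, and Acox57D-p of 12 hemocyte and fat body genes was lower by 0.55 on the log2 scale. The calls of knrl, vvl, bowl, abd-A, Eip75B, egr and Acox57D-p were each lost without at least 2 of the single libraries.

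**Figure D3:**
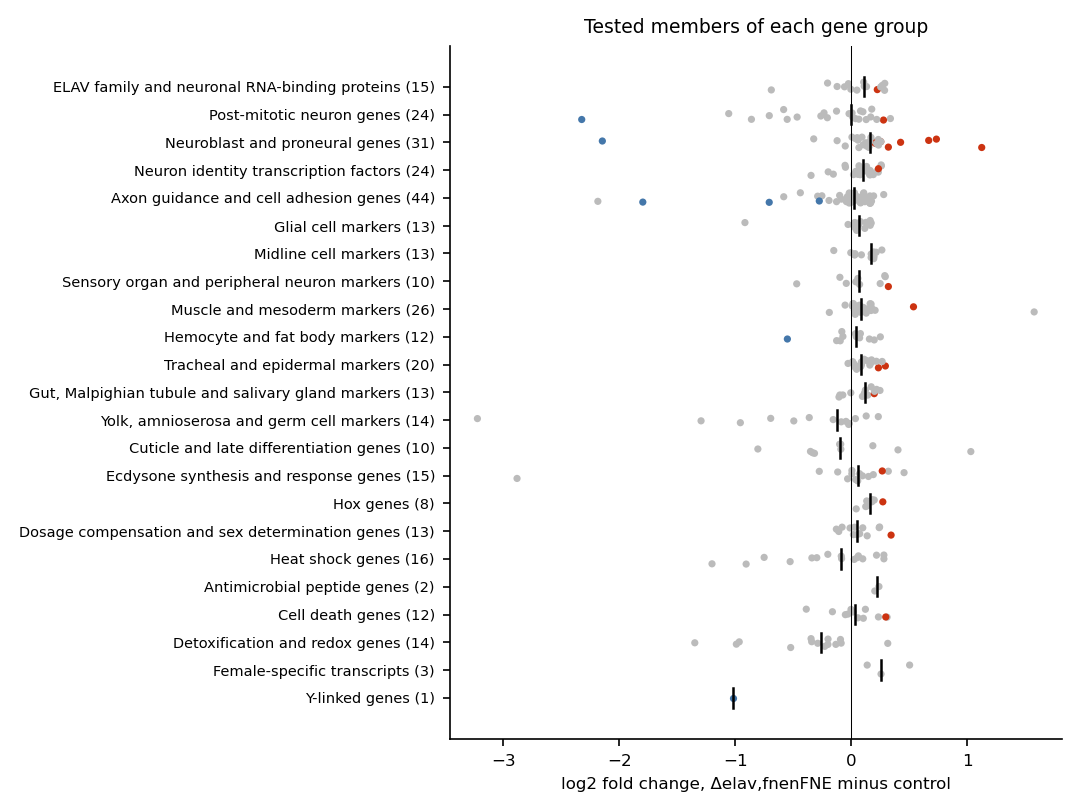
Log2 fold change at 7 to 8 h (horizontal axis) of each tested member of 23 gene groups (rows, number tested in brackets), with grey points not called, red higher, blue lower and a black line at the group's median. The neuroblast and proneural row holds 7 red points and 1 blue point, ac, at −2.15.

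Sex-linked RNAs differed between these libraries, all labelled male. roX1, a noncoding RNA of the male dosage compensation complex, stood at 906 to 1040 CPM in controls and 1080 to 1387 CPM in mutants (0.34, adjusted p = 0.0278), a call lost with 5 of the single libraries left out, and roX2 had a value of 0.24 (adjusted p = 0.277). None of the 3 female-specific transcripts tested was called. FDY, a Y-linked gene, stood at 38.2, 34.8, 38.0 and 31.7 CPM in controls and at 17.7, 19.0, 15.8 and 17.8 CPM in mutants (−1.02, SE 0.08, adjusted p = 5.46e-05). It was at 12.5 CPM in elavmin,fnenFNE and 29.2 CPM in elavnFNE embryos. At 14 to 16 h FDY was higher in Δelav,fnenFNE than in the wild type, at 8.05 against 0.767 CPM (3.38, adjusted p = 3.52e-06). CR46150, the other Y-linked gene tested and in none of the lists, was also lower at 7 to 8 h (−1.87, adjusted p = 0.00555).

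The largest changes were close to on or off. white (w), an ABC transporter of eye pigment precursors that is mutant in many laboratory strains, had 2, 0, 3 and 1 counts in controls and 576, 674, 607 and 538 counts in mutants (log2 fold change 9.0, adjusted p = 3.9e-09). It was at 27.8 CPM in elavmin,fnenFNE and at 0.317 CPM in elavnFNE embryos. The lncRNA yar, transcribed between yellow and achaete, had 1004, 642, 757 and 560 counts in controls and 3, 0, 0 and 9 counts in mutants (−7.47, SE 0.47, adjusted p = 0.000118). It had a mean of 1.76 CPM in elavmin,fnenFNE and 7.11 CPM in elavnFNE embryos. Hsc70-2, a heat shock cognate gene, stood at 11.9, 14.7, 12.5 and 17.7 CPM against 0.348, 0.279, 0.358 and 0.316 CPM (−5.43, SE 0.19, adjusted p = 3.12e-08), against 11.1 CPM in elavmin,fnenFNE and 6.37 CPM in elavnFNE embryos. In heads Hsc70-2 was again lower than in the wild type (−4.62, adjusted p = 3.66e-06). At 14 to 16 h its difference was smaller, at 2.21 CPM against 3.55 CPM in the wild type (−0.68, adjusted p = 0.0059). At that age w was higher than in the wild type (8.45, adjusted p = 6.52e-08) and yar was lower (−3.72, adjusted p = 0.000185).

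Other large decreases included CG33124, CG31157 and Ugt37A2. CG33124 was at 11.1 CPM in controls and between 0.220 and 0.343 CPM in the means of the other 3 genotypes. CG31157 fell from 3.4 to 0.165 CPM at 7 to 8 h and was lower in heads (−5.53 on the log2 scale, adjusted p = 4.73e-06). At 14 to 16 h neither CG31157 (−0.35, adjusted p = 0.498) nor Ugt37A2 (0.45, adjusted p = 0.11) differed from the wild type. CG33124 was higher there (0.40, adjusted p = 0.00366). Ugt37A2, a glycosyltransferase gene, fell from 4.94 to 0.256 CPM, and reads of this gene may be shared with its relative Ugt37A3, which was also lower. CG6184, CG32085, CG14312, CG31668 and CG42834 fell by 2.80 to 3.53 on the log2 scale, and the call of CG42834 was lost with 6 of the single libraries left out. Some of these genes lie close together. CG31157 starts at 3R:13047731 and Hsc70-2 ends at 3R:13047388. CG31668, at 2L:2203721-2206166, lies close to CG33124, at 2L:2206525-2209102. It too was low in elavmin,fnenFNE and elavnFNE, at 0.347 and 0.393 CPM. Whether each pair changed as 1 block was not tested.

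The increases other than that of w were smaller. topi, a testis zinc finger factor, had 12, 5, 14 and 7 counts in controls and 159, 96, 59 and 43 counts in mutants (3.64, adjusted p = 0.00162). The lncRNA CR40469 rose from 0.946 to 4.71 CPM, and dnc, the cAMP phosphodiesterase dunce, from 9.33 ± 1.75 to 20 ± 2.75 CPM (1.11, adjusted p = 0.00156). Mctp, ATPsynepsilonL, Alms1b, CG14275, CG7142 and CG14107 were also among the 12 largest increases, with values of 0.97 to 1.58. All of these calls but that of Alms1b were lost without 2 to 6 of the single libraries, and reads of Alms1b may be shared with its copy Alms1a. Of these 12, w, CR40469, Alms1b, sc and dnc lie on the X chromosome.

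Position on the X chromosome went with the share of genes called. Of 1607 X-linked genes tested, 58 were called, which is 3.61%. Within 250 kb of elav 6 of 56 were called (10.7%), between 250 kb and 1 Mb 6 of 71 (8.45%), between 1 and 5 Mb 24 of 261 (9.20%), and beyond 5 Mb 22 of 1219 (1.80%). The 6 nearest were lncRNA:yar, ac, sc, ase, Dredd, which was counted with mir-9372, and CG3777. Dredd, a caspase of the immune response, fell from 48.9 ± 1.07 to 39.1 ± 2.32 CPM (−0.32, adjusted p = 0.0126), and CG3777 rose from 51.8 to 63.3 CPM (0.29, adjusted p = 0.0406). Dredd was lower still in elavmin,fnenFNE and elavnFNE, at 27.0 and 26.8 CPM. The call of Dredd was lost without mutant a, and that of CG3777 without any of 6 single libraries. On the autosome arms, 2.09% to 3.54% of genes were called. Nearness to the deletion and other differences between the X chromosomes of the lines cannot be told apart.

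**Figure D4:**
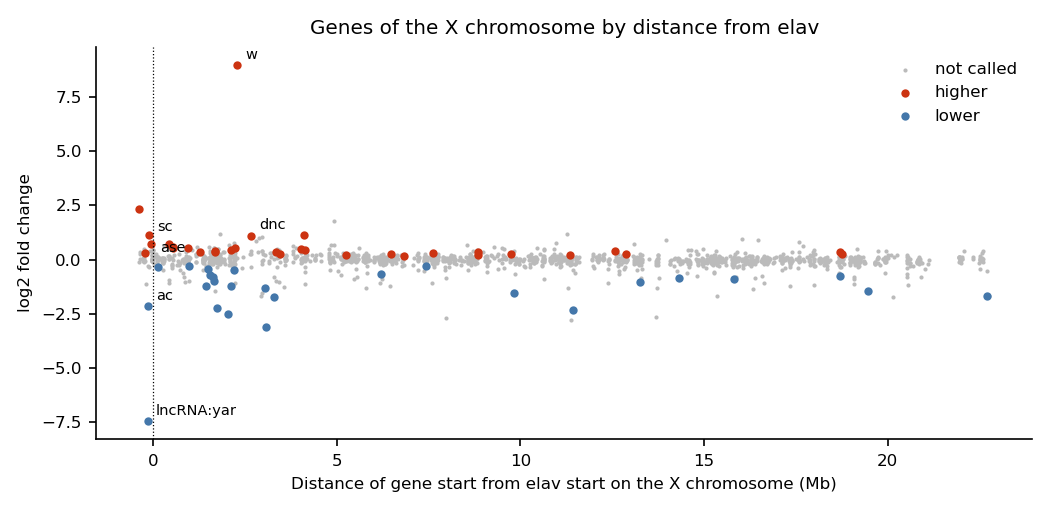
Log2 fold change of the 1607 tested genes of the X chromosome (vertical axis) by distance of the gene start from that of elav in Mb (horizontal axis, dotted line at elav). Called genes, in red (higher) and blue (lower), are denser within 5 Mb of elav than beyond it.

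REPTOR and CG2991 were higher than in all 3 other genotypes of this age. REPTOR, a transcription factor repressed by TOR signalling, stood at 91.6, 99.0, 101 and 88.2 CPM in controls and at 135, 149, 166 and 146 CPM in mutants (0.65, SE 0.07, adjusted p = 0.000393). CG2991 rose from 141 ± 6.01 to 222 ± 10.3 CPM (0.65, adjusted p = 4.17e-05). Both, and Drat, were chosen after their values were seen. REPTOR was above elavmin,fnenFNE by 0.60 (adjusted p = 0.00372) and above elavnFNE by 0.52 (adjusted p = 0.000514), and CG2991 by 0.67 (adjusted p = 7.67e-05) and 0.46 (adjusted p = 0.000192). Drat, by contrast, rose from 138 to 204 CPM but was at 203 and 228 CPM in elavmin,fnenFNE and elavnFNE, and the control stood apart from all 3.

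At later ages the called genes moved both ways. Of 126 higher genes that could be tested at 14 to 16 h, 26 were higher and 19 lower than in the wild type, and of 155 lower genes 28 were lower and 33 higher. Among all genes tested at that age, 25.6% were called in either direction. In heads, where 28.3% of genes tested were called, 21 of 119 higher genes were higher and 19 lower, and 37 of 144 lower genes were lower and 28 higher. The controls there are wild-type flies without the fnenFNE allele, so genotype, strain and age differ together.

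Within genes, the share of each bin was tested in the 39936 bins outside the genes that the study lists as ELAV targets. At an adjusted p under 0.01, 189 of these bins in 160 genes were called (0.473%), of 283 among all bins tested (0.634%). In the listed genes 94 of 4670 bins were called (2.01%), a list that the study drew in part from libraries of this series. Outside it, 150 bins were used more and 39 less in Δelav,fnenFNE embryos. Of the 189, 11 lay in genes called at the gene level. The groups did not overlap in the bin's share for 119 of them. The same count among all bins tested was not made, so nothing is read from it. In all 8 fits that leave out 1 library, 35 of the 189 passed. The outside set holds Bsg and px, which the study removed from its targets as false positives and put down to differing strain backgrounds. Their last bins were used less in Δelav,fnenFNE embryos, by −1.81 for Bsg (adjusted p = 4.3e-10) and −1.52 for px (adjusted p = 7.86e-09).

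Of the 150 bins used more, 78 lay at the 3′ end of their gene. Of 6411 such bins tested, 78 were called higher and 3 lower (1.26% called), against 15 and 6 of 5177 bins at the 5′ end (0.406%) and 57 and 30 of 28348 internal bins (0.307%). The median log2 change of the 78 was 0.72 and their median length 456.5 nt. Their median share of the gene was 2.10%, 3.26%, 2.66% and 3.0% in controls a to d and 4.39%, 3.51%, 7.11% and 4.68% in mutants a to d. Mutant c had the highest share of all 8 libraries for 77 of the 78, and control a, the deepest library, the lowest for 65. Without mutant c 12 of the 78 were called, and without control a also 12, and 6 passed in all 8 such fits. On the coverage index, which covers genes outside the listed targets, control a was the lowest library, at 0.0999, and mutant c, at 0.177, was second to control d, at 0.181. The part of coverage in the 3′ end calls was not tested.

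**Figure D5:**
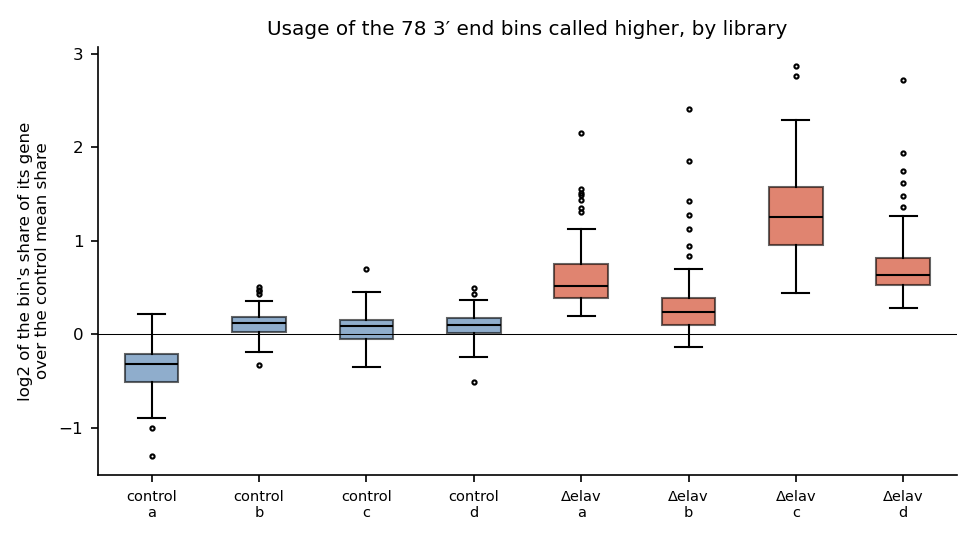
Share of its gene taken by each of the 78 3′ end bins called higher, as the log2 ratio to the control mean share (vertical axis), in each library (horizontal axis; control in blue, Δelav,fnenFNE, written Δelav, in red; boxes show the quartiles and whiskers reach 1.5 times the box height). Control a lies below the other controls and mutant c above the other mutants.

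The 3′ end bins of Tsp3A, AGO1 and Alms1a passed with any single library left out. Tsp3A, a tetraspanin that was itself called higher at the gene level (0.43, adjusted p = 0.00766), used its last bin at X:2617758-2618275 for 6.34%, 5.39%, 5.83% and 6.91% of its counts in controls and for 18.0%, 16.5%, 22.4% and 20.5% in mutants (log2 usage change 1.63, SE 0.13, adjusted p = 2.49e-11). AGO1, the Argonaute of the microRNA pathway, used its last bin at 2R:13943387-13943746 for 0.106% to 0.232% in controls and 0.368% to 1.15% in mutants (1.93, adjusted p = 6.29e-06). Alms1a used its last bin for 0.154% to 0.357% in controls and 0.975% to 1.6% in mutants, with the same reservation about its copy. For Notch (N), the last bin took 1.15% of the counts in controls and 2.11% in mutants (0.92, adjusted p = 9.66e-05), a call lost without control a. Tsp3A and N were chosen after their values were seen.

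Outside the listed genes, the bin with the smallest adjusted p was in lola, which was counted with pre-lola-G and was chosen after its values were seen. lola encodes BTB zinc finger factors of axon guidance that share their first exons and differ in the last ones. The bin at 2R:10517913-10518202 took 1.49%, 1.45%, 1.49% and 1.32% of the counts in controls and 0.222%, 0.248%, 0.223% and 0.301% in mutants (−2.53, SE 0.15, adjusted p = 4.49e-38). The bin at 2R:10500198-10502059 fell from 4.07% to 1.21% and that at 2R:10502358-10502462 from 0.456% to 0.117% (means, n = 4), while the gene total changed by 0.08 (adjusted p = 0.401). All 3 passed with any single library left out.

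The bins with the largest fold changes held few counts in one group. An internal bin of ph-p, a Polycomb group gene with a tandem copy that may share its reads, at X:2129467-2129917, held 11, 10, 6 and 0 counts in controls and 98, 94, 75 and 71 in mutants (4.0, SE 0.24, adjusted p = 7.41e-21). CG2694 used its last bin at X:2716766-2717654 for 22.6%, 20.4%, 20.9% and 26.0% of its counts in controls and for 3.03%, 3.50%, 4.05% and 2.13% in mutants (−2.75, SE 0.24, adjusted p = 4.01e-13). The locus counted as p24-2+Unc-115b, whose genes overlap, was nearly without counts in 3 neighbouring bins of the mutant between 3R:9691842 and 9692775. The largest of them held 159, 74, 75 and 62 counts in controls and 0, 0, 0 and 1 in mutants, and the smallest, with 0 counts in every mutant library, was not called when control a or any mutant library was left out. The whole locus fell from 11 to 2.09 CPM (−2.40, adjusted p = 1.21e-05). The shares of 2 other bins of this locus rose by 2.41 and 1.96 on the log2 scale, in counts of 27 or fewer. Counts of the first were 27, 14, 8 and 12 in controls and 8, 12, 9 and 4 in mutants. Those of the second were 27, 19, 20 and 17 against 14, 5, 8 and 7. Here too, a lower share of some bins raises those of the others. An internal bin of CG8870 at 3R:13380269-13380818 held 70, 52, 27 and 30 counts in controls and 2, 0, 1 and 1 in mutants. The first bin of Cnot4 (2.06) and 1 bin of the merged gene FBgn0266526+FBgn0050497 (−3.30) were called with overlapping groups, and both calls were lost with 4 or more of the single libraries left out.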

How the data were processed

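Total mRNA of pooled male embryos was sequenced with a stranded kit and paired-end reads of 100 bases at 7 to 8 h. The authors mapped reads to dm6 with STAR and counted them on annotated exon bins with HTSeq, and the deposited tables hold raw counts per bin. Their fold change and p-value columns were not used. Counts were summed over the bins of 17027 genes or merged genes, 626 of them merged because they overlap. Members, gene lists and tests were chosen with earlier results of these data known.

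Genes and bins were tested with edgeR 4.0.16 (filterByExpr, TMM, robust quasi-likelihood fit, Benjamini-Hochberg adjustment; bin usage by diffSpliceDGE, log2 scale), after both were tested on simulated data. Other tools were R 4.3.3, DESeq2 1.42.0, Python 3.11.15 and SciPy 1.17.1. Direct and later-age comparisons were separate fits, and 11 of the 41 libraries were not used. Named genes were elav, fne and Rbp9, the 12 largest changes each way among called genes with at least 1 CPM and no overlap, called list members and called genes within 250 kb of elav, and the 6 largest bin changes each way with at least 10 counts. The 4 letters a to d did not pair libraries (same-letter correlations of deviations −0.374 to 0.064). Samples of one group are replicate pools, and p-values measure the spread between them. Total counts per library were 19979088 to 51377771. Alternatives were other size factors, no filter, a replicate block, all 16 libraries of this age, DESeq2, stricter thresholds, merged genes or called bins left out (the last chosen after seeing the data) and each library left out.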

Additional observations from a re-analysis of the deposited data

Results flagged for a closer look

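Of 134 groups of 4 values checked, 9 had 1 value whose gap to the nearest other exceeded Dixon's 95% limit for 4 values, and chance flags about 1 in 20 groups. The total of control a was 51.4 M counts, against 23.9 to 25.8 M in the other controls. The scute level of control c was the lowest at 7.03 CPM, with 7.67 to 7.73 CPM in the others, and the egr level of control d was the lowest at 69.1 CPM, with 79.9 to 80.4 CPM in the others. In mutant d, CG31157 was at 0 CPM against 0.205 to 0.239 CPM, and Ugt37A2 was the highest at 0.496 CPM. For AGO1, the last bin took 1.15% of the counts in mutant c, above 0.368% to 0.471% in the other mutants. In p24-2+Unc-115b, bin E010 took 2.93% in control c, below 4.59% to 4.93%. There, bins E017 and E018 took 2.33% in mutant d and 2.44% in mutant b, each from 1 count, and 0% in the other mutants.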

How the results depend on the processing

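Counts of genes called moved more than directions did. Against 127 higher and 164 lower genes, DESeq2's Wald test called 325 and 335, an adjusted p under 0.01 left 39 and 67, and a log2 change of at least 1 left 15 and 82. One fit over all 16 libraries of 7 to 8 h called 202 higher genes. With 1 library left out, 58 to 119 genes were higher and 87 to 169 lower, fewest without mutant a. With the replicate letters as a block, 49 genes were higher and 101 lower, and 26 bins outside the listed genes were used less; not every library correlated best with its own letter. Of 150 and 39 bins used more and less, an adjusted p under 0.05 gave 233 more, a log2 change of at least 1 left 42 and 16, and leaving out 1 library left 33 to 199 and 21 to 32, with 33 more without mutant c and 33 without control a. Without 1 library, the developmental age index, mutant minus control, was −0.20 to −0.03. The coverage position index, mutant minus control, was −0.00376 to 0.0234, and negative without control a (−0.00376) and without mutant c (−0.00297). None of the fold changes of named genes or bins changed sign in any alternative that gave a value. The cause of these moves was not tested, beyond fewer samples in the fits that leave 1 out. Depth limits genes under 1 CPM, where 17 of the calls lie.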
